A study of Arabidopsis thaliana with 12 samples.

Results

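The interaction between genotype and Pep1 asks, for each gene, whether the response to the peptide differed between irr and wild-type Arabidopsis seedlings. It was taken as the change with Pep1 in irr minus the change with Pep1 in wild type, on group means of log2(FPKM + 1), where FPKM is fragments scaled to gene length in kilobases and to library size. A value below 0 means a smaller rise, a deeper fall or a fall in place of a rise in irr, and a value above 0 means the reverse. Only genes reaching 1 FPKM in 3 or more of the 12 libraries were kept, 18177 of the 32846 genes in the table. All values named interaction or Pep1 response below are log2 differences on this scale, which understates the change of genes with low FPKM.

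The 12 libraries form 4 groups of 3, all of cultivar Columbia 0. The groups were wild type with water, wild type with 1 µM AtPep1, irr with water and irr with 1 µM AtPep1. The irr genotype is labelled rrm/irr, with column names that carry only rrm, and irr was given the peptide in the same way as wild type. Groups of about 15 seedlings, 7 to 10 days old, floated in wells of liquid medium under constant light, and after 3 h they received water or peptide for 24 h. The treatment labels call the water controls untreated, while the protocol says that they received water. The mutant is 1 genotype, the labels give no complemented line or further allele, and each library is a pool of whole seedlings. The series describes the replicates as biological, but nothing says that they came from separate cultures or days, so the p-values reflect the spread among pools, which may be technical.

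Pep1 is a short peptide cut from the precursor PROPEP1 when cells are damaged. It binds the receptor kinases PEPR1 and PEPR2 and starts a response much like the one to microbial patterns, with calcium entry, reactive oxygen, ethylene and jasmonate, the induction of defensins and other secreted antimicrobial proteins, and slower root growth. IRR (AT3G23900) is an RNA-binding protein known as a negative regulator of this immune signalling, and one of its known targets is the transcript of CPK28, a calcium-dependent kinase that limits the activity of the signalling kinase BIK1.

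The level of IRR does not separate the genotypes. Its FPKM was 10.7, 14.6 and 13 in wild type with water, and 10.7, 12.7 and 11.3 in wild type with Pep1. In irr the values were 12.8, 11.6 and 11.5 with water, and 11.9, 10.8 and 11 with Pep1. The 4 groups overlap, and a gene-level FPKM does not show whether a transcript is intact, so this gene neither checks nor contradicts the labels. CPK28 stood at 10, 12.8 and 10.8 FPKM in wild type with water and at 13.6, 13.1 and 11.9 with Pep1. In irr the levels were at 17, 14.5 and 15.6 with water and at 26, 27.8 and 15.4 with Pep1. Both irr groups lie above both wild-type groups, and with Pep1 the irr libraries spread widely. Its Pep1 response was 0.19 in wild type and 0.49 in irr, and limma called neither (adjusted p = 0.591 and 0.188).

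Library totals, recovered from the steps in the FPKM values, were 17.41 to 28.59 M reads in 11 libraries and 56.49 M in irr water replicate 3. Wild-type water replicate 3, wild-type Pep1 replicates 1 and 2 and irr water replicate 1 had 245 to 346 FPKM of an 18S ribosomal RNA gene (AT3G41768, looked at after its values were seen), against 11.5 to 32.5 in the other 8. All 3 irr Pep1 libraries are among the 8 low in this RNA, so the rich libraries alone give no interaction. The median SD of a gene's log2 level within a group was 0.145, 0.121 and 0.164 for wild type with water, wild type with Pep1 and irr with water, and 0.186 for irr with Pep1. Where leaving out 1 library moved the median of a list described as leaning by over 1.5 times, that value is given beside it.

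No gene passed the interaction test in limma at an adjusted p under 0.05, 0 of 18177 or 0.0%, and the smallest adjusted p was 0.233. At an unadjusted p under 0.05 there were 1219 genes (6.71%), of which 336 (1.85%) lie above 0 and 883 (4.86%) below. Of all genes kept, 7879 (43.3%) have an interaction above 0 and 10298 (56.7%) below, and the median is -0.04. An interaction of at least 1 was found in 126 genes (0.693%) and one of at most -1 in 163 (0.897%). With library medians made equal, 442 genes lie above 0 and 621 below at an unadjusted p under 0.05, and with quantile normalization 502 and 646, so the excess below 0 shrinks with the scaling. Leaving out irr Pep1 replicate 3 gave 862 above and 899 below, and 7 genes with an adjusted p under 0.05 (AT1G20823, AT1G42430, ASN1, GATA4, AT5G28630, AT5G52670 and Novel00003), which were named after this was seen. The single-gene and list results that follow therefore describe how the Pep1 response leaned, and none is a called difference between the genotypes. Each genotype's own Pep1 response, which shares its libraries with the interaction, did give calls. In wild type 387 genes rose (2.13%) and 243 fell (1.34%), and in irr 134 rose (0.737%) and 228 fell (1.25%).

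The 883 genes below 0 were not all cases of a missing rise in irr. In 247 of them every wild-type water library lay under all 9 others, an ordering found in 1344 genes (7.39%) of all kept, so the gene was already high in irr with water. In 107 every irr Pep1 library lay under all others (473 genes, 2.6%), in 96 every irr water library lay above all others (248 genes, 1.36%), and in 84 every wild-type Pep1 library did (402 genes, 2.21%). Of the 336 genes above 0, the wild-type water libraries stood above all others in 79 (574 of all genes, 3.16%) and the irr Pep1 libraries in 49 (248 of all genes, 1.36%). Choosing genes by the sign and p-value of the interaction favours these orderings in advance, so the counts only describe the forms it took. The plot of 6 genes shows examples of these forms.

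**Figure D1:**
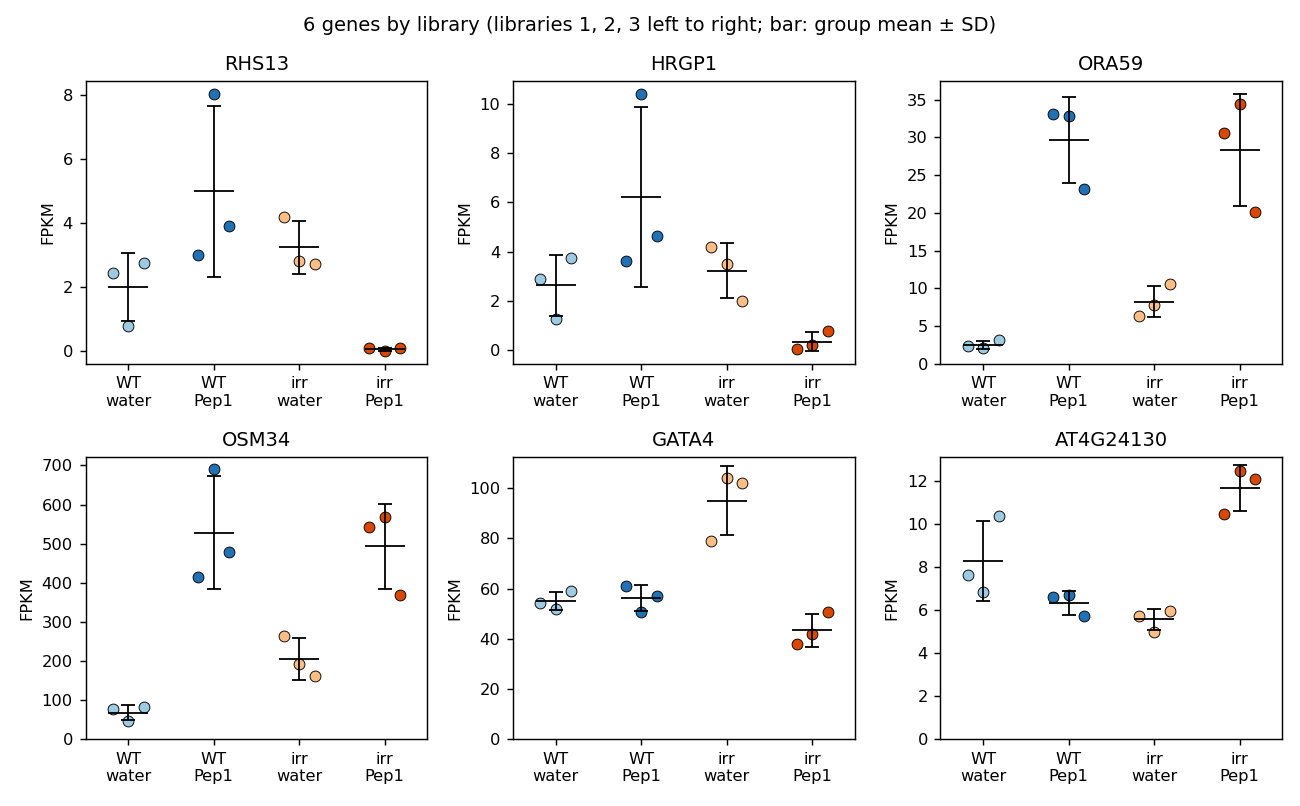
FPKM of RHS13, HRGP1, ORA59, OSM34, GATA4 and AT4G24130 in each of the 12 libraries, with libraries 1, 2 and 3 from left to right in each group and bars for the group mean ± SD (n = 3). RHS13 and HRGP1 are lowest in irr with Pep1, ORA59 and OSM34 are lowest in wild type with water, GATA4 is highest in irr with water and AT4G24130 is highest in irr with Pep1.

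Among genes that Pep1 changed over both genotypes, the lean was toward a smaller rise in irr, but it depends on 1 library. Genes were taken with an adjusted p under 0.05 and at least 1 log2 unit in either direction for the mean Pep1 effect. This contrast is orthogonal to the interaction in this balanced design, but independent of it only where the groups spread equally. The irr groups had the larger median SDs, so the choice can favour genes with a larger response in irr. By this choice 177 were raised (0.974%) and 51 lowered (0.281%). Of the 177 raised genes 117 (66.1%) had the smaller rise in irr, against 56.7% of all genes below 0, with a median interaction of -0.29 and median responses of 1.42 in wild type and 1.35 in irr. In water 156 of the 177 were already higher in irr, by a median of 0.61. Of the 51 lowered genes 29 (56.9%) had the smaller fall in irr, with a median interaction of 0.09. No gene of either class responded in opposite directions, which the choice by a mean effect of at least 1 made unlikely in advance. Without irr Pep1 replicate 3 the same 177 genes had a median of 0.17 and 75 with the smaller rise. Choosing the raised genes again without it gave 320, of which 31.6% had the smaller rise. The design is then unbalanced, so that choice is not orthogonal to the interaction and favours a larger rise in irr. Without irr Pep1 replicate 2 the same 177 had a median of -0.52. In the 8 libraries low in ribosomal RNA 90 of the 177 had the smaller rise, with a median of -0.02, and wild type with Pep1 is then a single library that is assumed to vary like the others.

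**Figure D2:**
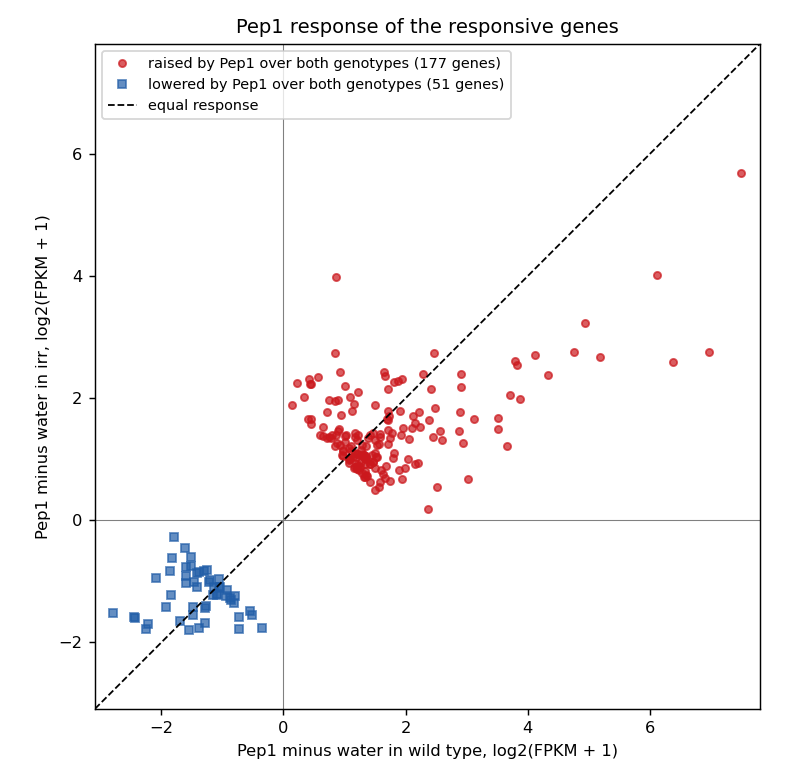
Pep1 response in irr against that in wild type, both as log2(FPKM + 1) differences, for the 177 genes raised (circles) and the 51 lowered (squares) by Pep1 over both genotypes; the dashed line marks equal responses. The raised genes with the largest responses in wild type lie under the line, and no gene lies in a quadrant of opposite signs. A large wild-type response itself favours a place under the line, since the interaction subtracts it. The choice by mean effect made opposite signs unlikely in advance.

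The clearest lean toward opposite responses was in genes of root hairs and of the hydroxyproline-rich cell wall. Root hairs are single outgrowths of root epidermal cells, and their tips extend by the secretion of extensins, proline-rich proteins, expansins and peroxidases under the control of the bHLH factors RHD6 and RSL4. Of the 12 root hair genes listed 5 passed the expression filter. All 5 were lower with Pep1 than with water in irr and higher with Pep1 in wild type, with a median interaction of -1.97 and median responses of 0.59 in wild type and -1.38 in irr. At an adjusted p under 0.05, 0 of the 5 rose in wild type and 2 fell in irr, against 2.13% and 1.25% of all genes. The wild-type side is therefore a direction only. All 5 had an unadjusted interaction p under 0.05, against 4.86% of all genes below 0. LRX2 counts among the 5 but passed the filter through irr with water, where it is high, so it adds no support. The list was chosen with earlier results of these data known, so this comparison is a description. In 4 of the 5 every irr Pep1 library lay under all 9 others, against 2.6% of all genes.

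RHS13, a proline-rich wall protein of root hairs, stood at 2.43, 0.768 and 2.76 FPKM in wild type with water and at 3.01, 8.03 and 3.91 with Pep1. Levels in irr were at 4.19, 2.82 and 2.7 with water and at 0.0743, 0 and 0.0739 with Pep1. The irr Pep1 libraries are far under every other library, and in wild type the Pep1 libraries are above the water libraries without overlap. Its interaction was -2.98 ± 0.45 (SE, limma adjusted p = 0.233), from a response of 0.99 in wild type (adjusted p = 0.108) and a fall in irr (adjusted p = 0.0176). EXPA7, an expansin that loosens the wall of root hairs, was at 1.96, 0.834 and 2.12 FPKM in wild type with water and at 2.67, 5.71 and 1.28 with Pep1. The irr values were at 6.11, 3.51 and 3.46 with water and at 0.161, 0.601 and 0.696 with Pep1, again under all other libraries. It fell in irr (adjusted p = 0.0312), and its interaction was -2.41 ± 0.51 (adjusted p = 0.349). Its response in wild type was 0.575 (adjusted p = 0.392), with overlapping libraries. The other 3 are named here after their values were seen. PRP3, a proline-rich wall protein, had an interaction of -1.97 ± 0.48, and RHS19, a root hair peroxidase, one of -1.74 ± 0.48. LRX2, an extensin with leucine-rich repeats, had one of -0.74 ± 0.32, and its irr Pep1 level, 0.583 to 0.978 FPKM, lay within or above the wild-type libraries. LRX2 reached 1 FPKM in irr with water alone, so it passed the filter through the group where it is high and is no support for the list.

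The 7 root hair genes under the filter point the same way, as seen in a fit of all 26190 genes above 0 in some library. They lie near the floor, so their values rest on few reads. For a gene of 1 kilobase, 1 read was 0.0553 to 0.0564 FPKM in irr with Pep1 and 0.0177 in irr water replicate 3. Their interactions ran from -1.04 for EXPA18, another expansin, to -0.38 for RSL4. RHS18 was at 0 in all 3 irr Pep1 libraries and at 0.125 to 1.04 FPKM in the other 9. RHD6 and RSL4, the factors that switch on root hair growth, did not separate: RSL4 was at 0.0988 to 0.301 FPKM in irr with Pep1 and at 0.125 to 0.714 in wild type with Pep1, and RHD6 at 0.0807 to 0.553 and 0.167 to 0.615. In a median over all 12 genes the interaction is -0.78. When each library was left out in turn, the median over the 5 kept genes, LRX2 included, lay between -2.33 and -1.63. No 1 library therefore set its sign. In the libraries low in ribosomal RNA the median was -1.78, but wild type with Pep1 is then a single library. In whole seedlings, fewer cells of a type and less RNA per cell cannot be told apart.

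Other root genes had values closer to 0. Of 10 genes that mark root tissues 7 were kept, with a median interaction of -0.23 (1 above 0 and 6 below) that was -0.11 without irr water replicate 2. The mean log2(FPKM + 1) of those 7 was 2.80 to 3.12 in wild type with water, 3.03 to 3.34 with Pep1, 2.94 to 3.31 in irr with water and 2.88 to 3.19 with Pep1, so the 4 groups overlap. MYB36, the 1 kept member with an unadjusted interaction p under 0.05, rose in wild type by 0.60 (limma adjusted p = 0.0401). Its response in irr was 0.14 (adjusted p = 0.646), and its interaction was -0.46 ± 0.20 (adjusted p = 0.719). SHR and CASP1 were named after their values were seen. SHR, a factor of the root's inner tissues, was at 3.34 to 4.14 FPKM in irr with Pep1 and at 3.24 to 4.51 in the other 9 libraries, and CASP1, which builds the Casparian strip, was at 25.3, 23.8 and 8.53 in irr with Pep1. Genes of low oxygen, which respond to submergence, had a median of 0.24 over 7 genes, 0.10 without irr Pep1 replicate 2 and 0.46 without irr Pep1 replicate 3, and group ranges of 1.62 to 2.07, 1.96 to 2.25, 1.76 to 1.85 and 1.78 to 2.42 in the same order of groups. Genes of cell division and DNA replication had a median of 0.02 over 15 genes, with a sign that changed under 9 alternatives.

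Extensins, the rod-like glycoproteins that are crosslinked into the wall, leaned below 0 as a family, with opposite responses in 6 of the 32 kept. Opposite means at least 0.5 each way, found in 0.226% of all genes higher in wild type and 0.0715% lower there. These 32 came from 56 genes with extensin in their product name. Of the 32, 24 lie below 0, against 56.7% of all genes. The median interaction was -0.49, with median responses of 0.26 in wild type and -0.46 in irr. At an unadjusted p under 0.05 there were 12 below 0 and 0 above, against 4.86% and 1.85% of all genes. LRX2, set aside above, adds no support here either, and members shared with the root hair list are not separate evidence. HRGP1 was at 2.88, 1.27 and 3.73 FPKM in wild type with water and at 3.62, 10.4 and 4.62 with Pep1. In irr it was at 4.2, 3.48 and 2 with water and at 0.0514, 0.209 and 0.767 with Pep1. It fell in irr (limma adjusted p = 0.0444) while its response in wild type was 0.94 (adjusted p = 0.169), for an interaction of -2.60 ± 0.52 (adjusted p = 0.314). AT3G54580, another extensin-like gene, had an interaction of -2.64 ± 0.52, and reads of such repetitive genes could be assigned to the wrong relative. EXT10, named after its values were seen, had one of -1.61 ± 0.35. Over extensins with a mean of at least 5 FPKM the median was -0.19.

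AT3G09925, a pollen Ole e 1 and extensin family protein counted among the extensins above, was at 0.754, 0.766 and 0.321 FPKM in irr with Pep1 and at 0.779 to 4.7 in the other 9 libraries. A fall in irr passed the test (adjusted p = 0.0376), with an interaction of -2.08 ± 0.44. Single members of other secreted families were lowest in irr with Pep1 too. The peroxidase AT1G30870 was at 0.0898, 0.319 and 0.402 FPKM in irr with Pep1 and at 0.464 to 5.11 elsewhere, with an interaction of -2.27 ± 0.50 (limma adjusted p = 0.364). AT5G57625, a CAP-domain secreted protein, fell in irr (adjusted p = 0.0279), with an interaction of -1.99 ± 0.49. All 3 were low in every library, and in each the irr Pep1 libraries lay under the other 9.

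Across all genes kept, opposite responses without overlap were rare. In 66 genes (0.363%) the Pep1 libraries lay above the water libraries in wild type and under them in irr, and in 20 (0.11%) the reverse held. Responses of opposite sign and at least 0.5 each were found in 41 genes higher with Pep1 in wild type (0.226%) and 13 lower there (0.0715%). Both groups moved the same way without overlap in 632 genes upward (3.48%) and 728 downward (4.01%). On the reverse side stood WAK2, a kinase that binds pectin in the wall, at 9.59, 10.8 and 7.62 FPKM in wild type with water and at 5.29, 6.53 and 4.65 with Pep1. The irr libraries were at 4.02, 4.39 and 4.22 with water and at 9.97, 5.3 and 6.63 with Pep1. Its interaction was 1.31 ± 0.27 (limma adjusted p = 0.349), and neither response was called (adjusted p = 0.0775 in wild type and 0.115 in irr). KCS1, an enzyme of wax synthesis, had overlapping irr groups, with a response of -0.67 in wild type and 0.65 in irr.

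**Figure D3:**
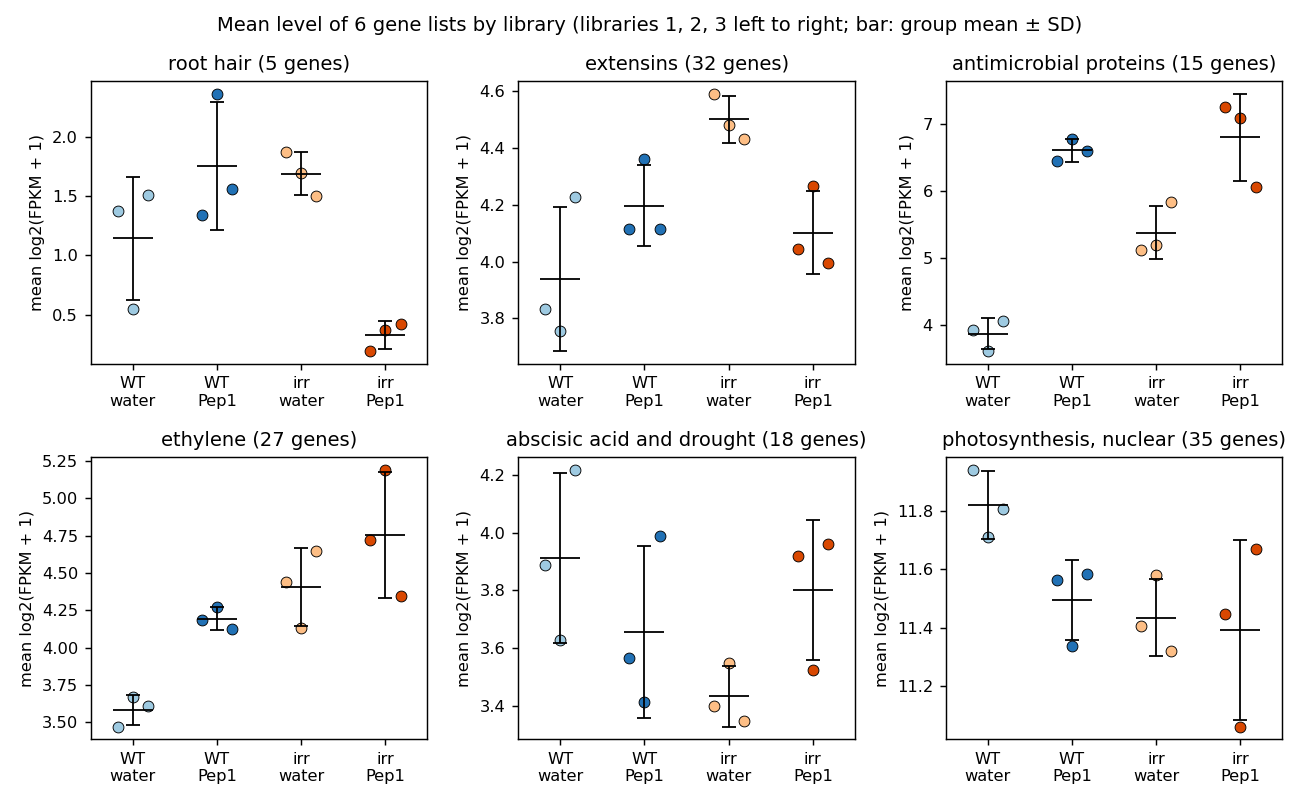
Mean log2(FPKM + 1) over the genes kept of 6 lists in each library, with libraries 1, 2 and 3 from left to right and bars for the group mean ± SD (n = 3). Root hair genes are lowest in irr with Pep1, antimicrobial and ethylene genes are lowest in wild type with water, and irr with Pep1 is the widest group in the antimicrobial, ethylene and photosynthesis lists.

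Antimicrobial proteins rose with Pep1 in more members in wild type than in irr. These are small secreted defensins, osmotin, hevein-like and inhibitor proteins that ethylene and jasmonate induce together against fungi. Of 16 listed 15 were kept, and 8 rose in wild type and 3 in irr, against 2.13% and 0.737% of all genes. The median response was 2.23 in wild type and 1.37 in irr, and 14 of the 15 had an interaction below 0, with a median of -1.36. In water the list was already higher in irr, by a median of 1.58, while with Pep1 the genotypes differed by a median of 0.03. Over the list the mean log2(FPKM + 1) was 3.61 to 4.06 in wild type with water and 6.44 to 6.78 with Pep1, against 5.12 to 5.83 in irr with water and 6.06 to 7.26 with Pep1. The groups with Pep1 overlap, and the water groups do not.

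OSM34, an osmotin that permeabilises fungal membranes, was at 76.6, 46.7 and 82 FPKM in wild type with water and at 416, 690 and 478 with Pep1. In irr the levels were at 264, 192 and 161 with water and at 543, 567 and 369 with Pep1. It rose in both genotypes, by 2.94 in wild type and by 1.26 in irr (limma adjusted p = 0.000886 and 0.0387), and the interaction was -1.68 ± 0.38 (adjusted p = 0.377). PR4, a chitin-binding protein, rose by 2.88 and 1.46, with an interaction of -1.42 ± 0.42. AZI1, a lipid-transfer protein of defence priming and the most abundant of these with 341 to 550 FPKM in wild type with water, had an interaction of -0.82 ± 0.55 and no called response.

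The defensins PDF1.2, PDF1.2b, PDF1.2c and PDF1.3 are near-identical, so how reads were shared out among them is unsure. PDF1.3 was at 0.283, 0 and 0.597 FPKM in wild type with water and at 123, 205 and 155 with Pep1. Levels in irr were at 1.23, 35.3 and 72.3 with water and at 348, 109 and 46.6 with Pep1. The irr libraries spread widely in both treatments and overlap. PDF1.3 rose in wild type (adjusted p = 0.00718) and was not called in irr (adjusted p = 0.193), and the interaction was -4.21 ± 1.47 (adjusted p = 0.627). PDF1.2b, named after its values were seen, rose in both genotypes, by 7.50 and 5.69 (adjusted p = 0.00119 and 0.0101). The inhibitor TI1 had an interaction of -1.48 ± 0.54 and the defensin PDF1.4 one of -1.29 ± 0.56, both named after their values were seen.

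Genes named as defensins or defensin-like gave the same direction, with overlap in members with the list above. Of 113 only 15 were kept, 13 of them below 0, with a median interaction of -0.82 and responses of 0.73 in wild type and 0.18 in irr. Without wild-type Pep1 replicate 1 the median interaction was -0.41. The most abundant, AT3G05730, took another form. It was at 185, 316 and 240 FPKM in wild type with water, at 171, 155 and 170 with Pep1, at 379, 350 and 421 in irr with water and at 132, 130 and 145 with Pep1. It fell in irr (limma adjusted p = 0.0101) from a level above all wild-type libraries to one below them, and its response in wild type was -0.54 (adjusted p = 0.0789). The CAP-domain protein AT4G33720, of the family of PR1, was at 14.1, 1.1 and 4.96 FPKM in wild type with water and at 382, 570 and 502 with Pep1. The irr values were at 21.6, 29.2 and 30.1 with water and at 298, 361 and 42.6 with Pep1. It rose by 6.38 in wild type (adjusted p = 0.00267), its response in irr was 2.60 (adjusted p = 0.102), and replicate 3 of irr with Pep1 stands near the water level.

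Ethylene genes leaned the same way with small values. Ethylene is sensed by receptors such as ERS2 and acts through EIN2 and the factors EIN3 and EIL1 on ERF factors. Of 28 listed 27 were kept, 22 below 0, with a median interaction of -0.24 and responses of 0.47 in wild type and 0.24 in irr. At an unadjusted p under 0.05 there were 6 below 0 and 0 above, against 4.86% and 1.85% of all genes. The median interaction was -0.13 without irr Pep1 replicate 3 and -0.54 without irr Pep1 replicate 2. In water the list was higher in irr by a median of 0.80. The clearest member was ORA59, the ERF factor through which ethylene and jasmonate together induce the defensins. It was at 2.33, 2.1 and 3.13 FPKM in wild type with water and at 33.1, 32.8 and 23.1 with Pep1. In irr it was at 6.38, 7.84 and 10.5 with water and at 30.6, 34.4 and 20.1 with Pep1. The levels with Pep1 overlap, and irr with water is above wild type with water in every library. ORA59 rose by 3.12 in wild type and by 1.66 in irr (limma adjusted p = 0.000197 and 0.015), and its interaction was -1.46 ± 0.31 (adjusted p = 0.349).

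EIN2, the membrane protein that passes on the ethylene signal, was at 25.5, 27.2 and 28.3 FPKM in wild type with water and at 35.7, 38.3 and 35.7 with Pep1, and at 32.2 to 36.6 in the 6 irr libraries. It rose in wild type by 0.42 (adjusted p = 0.0196), its response in irr was -0.01, and the interaction was -0.43 ± 0.11 (adjusted p = 0.492). Of the members with an unadjusted p under 0.05, EIL1, EBF2 and ERS2 were named after their values were seen. EIL1 had an interaction of -0.43 ± 0.13, EBF2, an F-box protein that removes EIN3, one of -0.63 ± 0.24, and ERS2 one of -0.55 ± 0.23. EIL1 was higher in irr with water, at 42 to 44.9 FPKM, than in every other library. ERS2 was at 10.9, 7.9 and 8.83 FPKM in irr with water, against 3.68 to 5.71 in the 6 wild-type libraries.

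Peroxidases and dirigent proteins, which crosslink wall polymers and guide the coupling of lignin and lignan precursors, gave further smaller rises. Of 75 genes with peroxidase in their product name 53 were kept. The name also takes in DOX1 and a few proteins of unknown function, which are not secretory peroxidases. Of the 53, 15 rose in wild type and 5 in irr, 36 lie below 0, and the median interaction was -0.39. Of all genes 2.13% rose in wild type and 0.737% in irr. Without irr Pep1 replicate 3 the median was -0.17. The median responses were 0.50 and 0.46, and of 13 raised over both genotypes 11 had the smaller rise in irr. PRX52, named after its values were seen, was at 0.518 to 2.2 FPKM in wild type with water, at 68.1 to 81.6 with Pep1, at 1.39 to 17.3 in irr with water and at 18.3 to 83.2 with Pep1. In wild type it rose by 5.18 (limma adjusted p = 0.00345), and its response in irr was 2.67 (adjusted p = 0.0698). AT2G37130, a peroxidase of high level, was at 107, 96.8 and 137 FPKM in wild type with water and at 287, 377 and 293 with Pep1, above every irr library. It rose in wild type by 1.49 (adjusted p = 0.00328), its response in irr was 0.40 (adjusted p = 0.293), and its interaction was -1.08 ± 0.27. Of 26 dirigent proteins 13 were kept, 11 of them below 0, with a median interaction of -0.52 that was -0.24 without irr Pep1 replicate 3. DIR5 had responses of 4.77 in wild type and 2.75 in irr. Its water libraries lay between 0.864 and 2.91 FPKM in wild type and between 5.64 and 19.2 in irr.

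A germin-like cupin, AT3G05950, had one of the smallest p-values of the interaction. It was at 0.791, 0.216 and 0.848 FPKM in wild type with water and at 5, 6.68 and 11.2 with Pep1. The irr libraries were at 6.24, 10.1 and 5.94 with water and at 9.92, 7.66 and 7.64 with Pep1. Only wild type with water stands apart, and the other 3 groups overlap. In wild type it rose by 2.37 (limma adjusted p = 0.00226), and its interaction was -2.19 ± 0.38 (adjusted p = 0.233). ORP4C, an oxysterol-binding protein, had the same order, at 4.07 to 5.58 FPKM in wild type with water and at 9.55 to 15.1 in the other 9 libraries, with an interaction of -1.09 ± 0.23. RUP1, which turns off the UV-B receptor, was at 22.3 to 23.9 FPKM in wild type with water and at 33 to 40.9 elsewhere. It rose in wild type by 0.57 (adjusted p = 0.0069), with an interaction of -0.72 ± 0.12 (adjusted p = 0.233).

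Hexose transporters and clock genes leaned below 0 at moderate levels. Of 6 STP transporters, which take up sugar from the wall space, 5 lie below 0, with a median of -0.48 that was -0.28 without irr water replicate 1. STP14 was at 63.6, 67.1 and 72.5 FPKM in wild type with water and at 126, 156 and 127 with Pep1, above the 84.1 to 114 of irr with Pep1. In wild type it rose by 1.00 (limma adjusted p = 0.00287), and its interaction was -0.73 ± 0.17 (adjusted p = 0.42). STP1, the main hexose uptake carrier, was at 1160 to 1200 FPKM in irr with water and at 797, 970 and 1270 with Pep1, with an interaction of -0.48 ± 0.21. Of 14 clock genes 12 lie below 0, with a median of -0.35. LHY, a morning factor of the clock, was at 12.9 to 18.1 FPKM in wild type with water and at 22.7 to 25.8 with Pep1, and at 20.3 to 31.1 and 18.5 to 24.6 in irr. It rose in wild type by 0.72 (adjusted p = 0.0395), its response in irr was -0.29, and the interaction was -1.01 ± 0.24 (adjusted p = 0.42). RVE8, a related factor, had an interaction of -0.55 ± 0.23. The seedlings were in constant light, and no label names the time of harvest.

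ER bodies are compartments of Brassicaceae that store the glucosidase PYK10 and release it on wounding. Of 9 genes 8 lie below 0, with a median interaction of -0.49 and responses of 0.24 in wild type and -0.27 in irr. Without irr water replicate 2 the median interaction was -0.32. BGLU22, a glucosidase of these bodies, was at 21.6, 7.65 and 25 FPKM in wild type with water and at 29.7, 31.4 and 26.1 with Pep1. In irr the levels were at 26.4, 57.6 and 42.1 with water and at 20.5, 31 and 19.3 with Pep1. The irr groups overlap, and the wild-type groups do not. MEB1, a membrane protein of the bodies, was at 6.68 to 6.87 FPKM in irr with Pep1, under all other libraries, with an interaction of -0.52 ± 0.20. The single gene above 0, BGLU18, is a glucosidase of wound-induced bodies. It fell in both genotypes, by 2.21 on the log2 scale in wild type and by 1.69 in irr (limma adjusted p = 0.00328 and 0.0196), and was named after its values were seen.

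Some genes were highest in irr with water and fell there with Pep1. GATA4, a zinc-finger factor, was at 54.4, 52 and 58.9 FPKM in wild type with water and at 60.9, 50.8 and 57.2 with Pep1. Levels in irr were at 79.1, 104 and 102 with water and at 37.8, 42 and 50.5 with Pep1, so that irr lies above wild type with water and below it with Pep1. It fell in irr by 1.11 on the log2 scale (limma adjusted p = 0.0101), its response in wild type was 0.03, and the interaction was -1.14 ± 0.18 (adjusted p = 0.233). Without irr Pep1 replicate 3 the adjusted p was 0.0489. BCCP2, a subunit of plastid fatty acid synthesis, was at 19.7 to 21.4 FPKM in irr with water and at 10.5 to 13 in the other 9 libraries. It fell in irr (adjusted p = 0.0101), with an interaction of -0.81 ± 0.14. PAR1, a factor of shade responses, was at 23.7 to 33.4 FPKM in irr with water and at 11.9 to 20.9 elsewhere, with an interaction of -1.04 ± 0.20 (adjusted p = 0.314), and it fell in irr (adjusted p = 0.0171).

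The functions that leaned above 0 were fewer. Genes of abscisic acid and drought, the hormone that closes stomata and induces protective proteins, had a median interaction of 0.42, with 15 of the 18 kept above 0 and 3 below. At an unadjusted p under 0.05 there were 5 above 0 and 0 below, against 1.85% of all genes above 0. The median response was -0.17 in wild type and 0.16 in irr, and the median interaction was 0.24 without wild-type water replicate 3 and 0.75 without wild-type Pep1 replicate 3. HAI1, a phosphatase of abscisic acid signalling, was at 0.964, 0.352 and 0.672 FPKM in wild type with water and at 0.545, 0.42 and 0.668 with Pep1. The irr values were at 0.299, 0.225 and 0.423 with water and at 1.64, 2.18 and 2.03 with Pep1, above all other libraries. HAI1 reached 1 FPKM in irr with Pep1 alone, so it passed the filter through the group where it is high and its place there is no support for the list. It rose in irr by 1.16 (limma adjusted p = 0.0171), its response in wild type was -0.09, and the interaction was 1.26 ± 0.24 (adjusted p = 0.314).

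The other members with a small p had their lowest mean in irr with water. P5CS1, the enzyme of stress-induced proline, was at 19.4 to 23.4 FPKM in wild type with water, at 10.9 to 16.6 with Pep1, at 10.1 to 13.2 in irr with water and at 11.3 to 19.2 with Pep1, with an interaction of 0.97 ± 0.27. RD22, KIN1 and NCED3 are named after their values were seen. RD22, a drought-induced wall protein, had an interaction of 1.68 ± 0.49, and its irr Pep1 libraries were at 91.1, 41.9 and 93 FPKM. KIN1, a cold-induced protein, had one of 2.61 ± 0.95, with 8.1, 0.72 and 3.32 FPKM in the same libraries, and NCED3, which makes the precursor of abscisic acid, one of 0.92 ± 0.35. In the 8 libraries low in ribosomal RNA the median of the list was -0.01.

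Camalexin and the related cyanogenic indoles are antimicrobial compounds made from tryptophan. All but 1 of the 13 genes kept lie above 0, with a median interaction of 0.33 and responses of 0.87 in wild type and 1.28 in irr. The median was -0.16 without irr Pep1 replicate 2, -0.03 without irr water replicate 2 and 0.88 without irr Pep1 replicate 3. Of the 13, 1 rose in wild type and 4 in irr, against 2.13% and 0.737% of all genes. MYB122 is among the 4 but passed the filter through irr with Pep1, where it is high, so it is no support for the list. CYP82C2, which makes the cyanogenic indole, was at 0 FPKM in all 3 wild-type water libraries and at 1.94, 0.804 and 0.146 with Pep1. In irr it was at 18.9, 1.55 and 9.28 with water and at 174, 332 and 34.1 with Pep1. Each irr Pep1 library is above every other library, and CYP82C2 rose in irr (limma adjusted p = 0.035) with an interaction of 3.11 ± 1.13 (adjusted p = 0.642). MYB122, a factor that induces indole pathway genes, was at 10.3, 13.5 and 4.82 FPKM in irr with Pep1 and at 0 to 1.69 elsewhere, and it passed the filter through the irr Pep1 libraries. It rose in irr by 2.35 (adjusted p = 0.0171), with an interaction of 1.78 ± 0.48 (adjusted p = 0.493). PAD3, the last enzyme of camalexin synthesis and also named after its values were seen, rose in both genotypes, by 2.47 and 2.74 (adjusted p = 0.01 and 0.0171).

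ER chaperones, which fold secreted proteins and receptors, had 8 of 8 genes above 0, a median interaction of 0.43 and responses of 0.36 in wild type and 0.76 in irr. None of the responses was called in either genotype. BIP1, the main HSP70 chaperone of the ER, was at 35, 37.9 and 28.1 FPKM in wild type with water and at 42.6, 51.5 and 38.2 with Pep1. The irr libraries were at 51.3, 31.3 and 66.2 with water and at 79.7, 191 and 41.6 with Pep1, with replicate 2 far above the rest. Without that library the median of the list was -0.13, and without replicate 3 it was 0.94.

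Some single genes outside these lists were highest in irr with Pep1. AT4G24130, a protein of unknown function with a DUF538 domain, had one of the smallest p-values. It was at 7.63, 6.87 and 10.4 FPKM in wild type with water and at 6.6, 6.72 and 5.72 with Pep1. In irr the levels were at 5.74, 5.01 and 5.98 with water and at 10.5, 12.5 and 12.1 with Pep1. It rose in irr by 0.95 (limma adjusted p = 0.0171), its response in wild type was -0.32 (adjusted p = 0.212), and the interaction was 1.27 ± 0.20 (adjusted p = 0.233). AT1G20823, a RING-finger ubiquitin ligase, was at 1.15 to 3.18 FPKM in the 9 other libraries and at 6.13, 7.53 and 3.37 in irr with Pep1. It rose in irr by 1.29 (adjusted p = 0.0225), with an interaction of 1.78 ± 0.32 (adjusted p = 0.257, and 0.0228 without irr Pep1 replicate 3). AT5G39110, another germin-like cupin, was at 2.58, 5.99 and 2.23 FPKM in irr with Pep1, the group through which it passed the filter, and at 0 to 0.551 elsewhere, and rose in irr by 2.02 (adjusted p = 0.0101).

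Values above 0 also came from genes whose fall passed the test in wild type and not in irr, a difference that the interaction test did not call. NIR1, the nitrite reductase of nitrate assimilation, was at 68.2, 64 and 56.3 FPKM in wild type with water and at 36.1, 37.3 and 42.3 with Pep1. Levels in irr were at 32.1, 38.9 and 43.4 with water and at 53.5, 35.5 and 38.5 with Pep1, which overlap. It fell in wild type by 0.69 on the log2 scale (limma adjusted p = 0.0338), its response in irr was 0.14, and the interaction was 0.83 ± 0.22 (adjusted p = 0.492). FIB, a fibrillin of plastid lipid droplets, fell in wild type by 0.85 (adjusted p = 0.0322), with an interaction of 1.09 ± 0.26. AT4G34950, a membrane carrier, was at 20.6 to 26.7 FPKM in wild type with water, at 7.27 to 8.42 with Pep1, at 1.43 to 3.69 in irr with water and at 2.13 to 6.87 with Pep1. It fell in wild type (adjusted p = 0.0328), with an interaction of 1.74 ± 0.44, and was lower in irr in either treatment.

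Nuclear genes of photosynthesis, which code for the light-harvesting proteins and photosystem subunits, lie above 0 in 35 of 35. The median interaction was 0.28, with a response of -0.30 in wild type and -0.03 in irr. It was 0.12 without irr Pep1 replicate 3 and 0.43 without irr Pep1 replicate 2. In wild type 1 of the 35 fell, in irr 0 did, and 1 has an unadjusted interaction p under 0.05, close to the shares of all genes (1.34%, 1.25% and 1.85%). PSAH2, a subunit of photosystem I, was at 1290, 1160 and 1120 FPKM in wild type with water and at 815, 762 and 866 with Pep1. The irr values were at 874, 1030 and 809 with water and at 951, 704 and 933 with Pep1. Wild type with water stands above the other 9 libraries, which overlap, and the interaction was 0.47 ± 0.19 (limma adjusted p = 0.699). These genes vary together between libraries, so 35 genes are not 35 separate observations. Major latex proteins, a family of small ligand-binding proteins, had a median of 0.34 over 7 genes, 6 above 0. MLP28 fell in both genotypes, by 2.25 in wild type and by 1.78 in irr (adjusted p = 0.00287 and 0.0171). The median of this list was 0.17 without wild-type Pep1 replicate 1, 0.56 without irr water replicate 2 and -0.22 in the libraries low in ribosomal RNA.

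Genes of the chloroplast's own genome went the other way from the nuclear photosynthesis genes. Of 133 listed 97 were kept, 84 of them below 0, with a median interaction of -0.64 and responses of -0.13 in wild type and -0.68 in irr. In irr 6 of the 97 fell and in wild type 0, against 1.25% and 1.34% of all genes. ATCG00750 was at 130, 152 and 127 FPKM in wild type with water and at 126, 131 and 109 with Pep1. In irr it was at 146, 119 and 258 with water and at 83.2, 70.5 and 78.2 with Pep1, lower than in every other library. A fall in irr passed the test (limma adjusted p = 0.035), with an interaction of -0.93 ± 0.31 (adjusted p = 0.585). The value of 258 belongs to irr water replicate 3, the deepest library, and without it the median of the list was -0.23. ATCG00820 had the same order, at 95.9 to 116 FPKM in irr with Pep1 against 157 to 284 in the other 9, with an interaction of -0.80 ± 0.24.

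**Figure D4:**
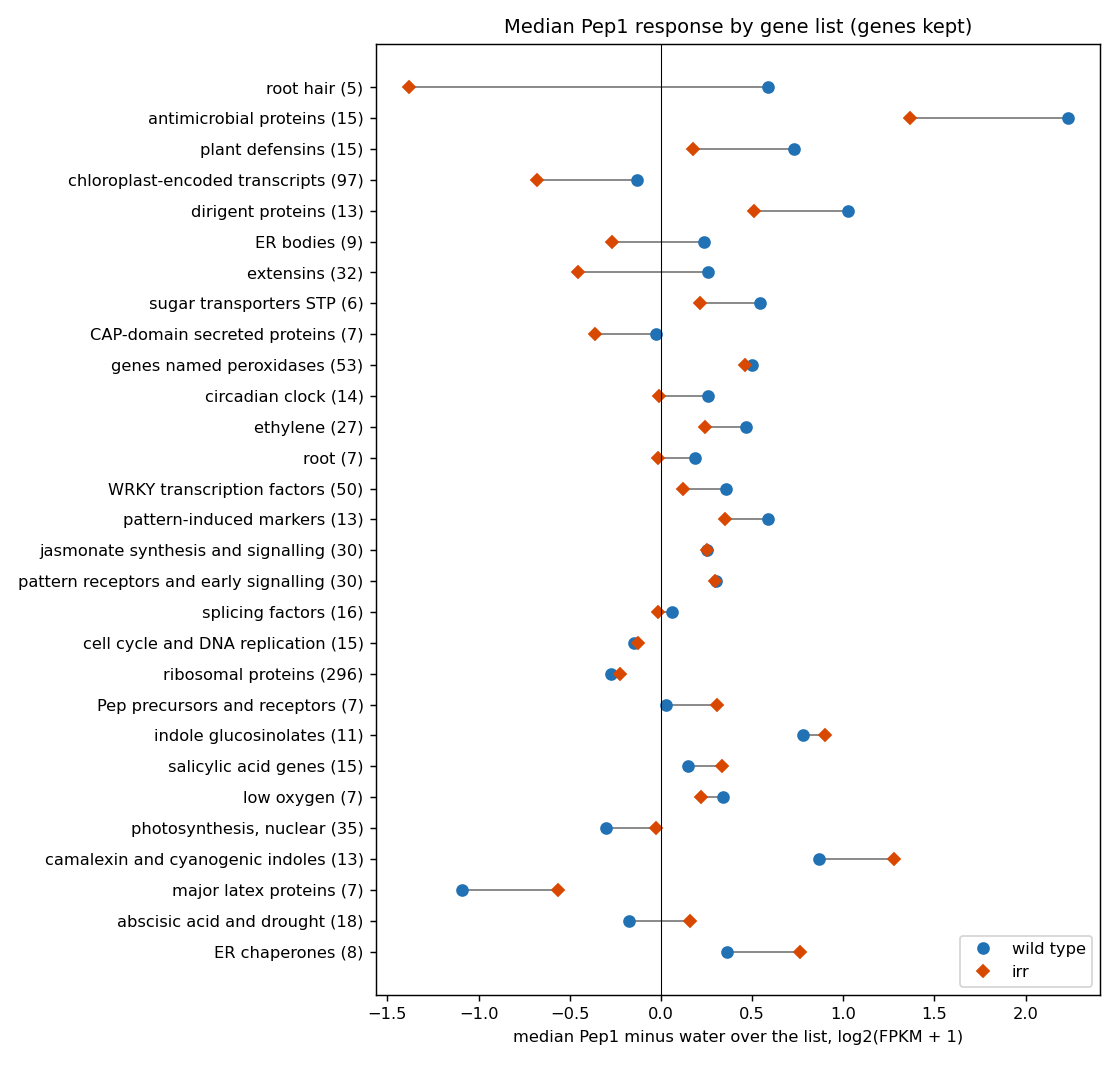
Median Pep1 response, as a log2(FPKM + 1) difference, over the genes kept of 29 lists (number of genes in brackets) in wild type (circles) and irr (diamonds), ordered by the median interaction. Root hair genes and extensins lie on opposite sides of 0 in the genotypes, antimicrobial proteins rise less in irr, and abscisic acid genes lie below 0 in wild type and above it in irr.

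The receptor and early signalling lists had medians near 0. Of 30 genes of pattern receptors and early signalling, such as BIK1 and RBOHD, 12 lie above 0 and 18 below, with a median of -0.06 and responses of 0.30 and 0.30. Pep precursors and receptors had a median of 0.07 over 7 genes. PROPEP3, a precursor that Pep signalling induces, was at 0.26 to 0.792 FPKM in wild type with water, at 2.01 to 4.72 with Pep1, at 1.8 to 15.4 in irr with water and at 8.19 to 69 with Pep1, and its responses of 1.32 and 1.65 were not called. Markers induced by patterns, with WRKY33 among them, had a median of -0.17 over 13 genes. That median was -0.47 without irr Pep1 replicate 2 and 0.17 without irr Pep1 replicate 3, so its direction is unsettled. Of 50 WRKY factors 35 lie below 0, with a median of -0.18 that was -0.08 without irr Pep1 replicate 3 and -0.33 without replicate 2. In wild type 3 rose and in irr 0, against 2.13% and 0.737% of all genes. Among them WRKY45 rose in wild type by 1.66 (limma adjusted p = 0.0117), with a response of 0.70 in irr and an interaction of -0.95 ± 0.39.

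Hormone and housekeeping lists were near 0 as well. Jasmonate genes had a median of -0.10 over 30 genes and salicylic acid genes 0.17 over 15, with 0 of the latter called in either genotype. The salicylic acid median was 0.02 without irr water replicate 2 and 0.45 without irr water replicate 3. Indole glucosinolate genes had a median of 0.10 over 11, with a range of -0.28 to 0.54 over left-out libraries. Splicing factors had a median of -0.06 over 16 genes, with 13 below 0. Genes named as ribosomal proteins had a median of 0.03 over 296 genes, 169 above 0 and 127 below, and 26 fell in each genotype, against 1.34% of all genes in wild type and 1.25% in irr. The median changed sign under at least 1 alternative for the Pep precursor, pattern receptor, pattern-induced, jasmonate, indole glucosinolate, splicing and ribosomal lists. Genes of a list move together between libraries, so a long list does not add precision.

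**Figure D5:**
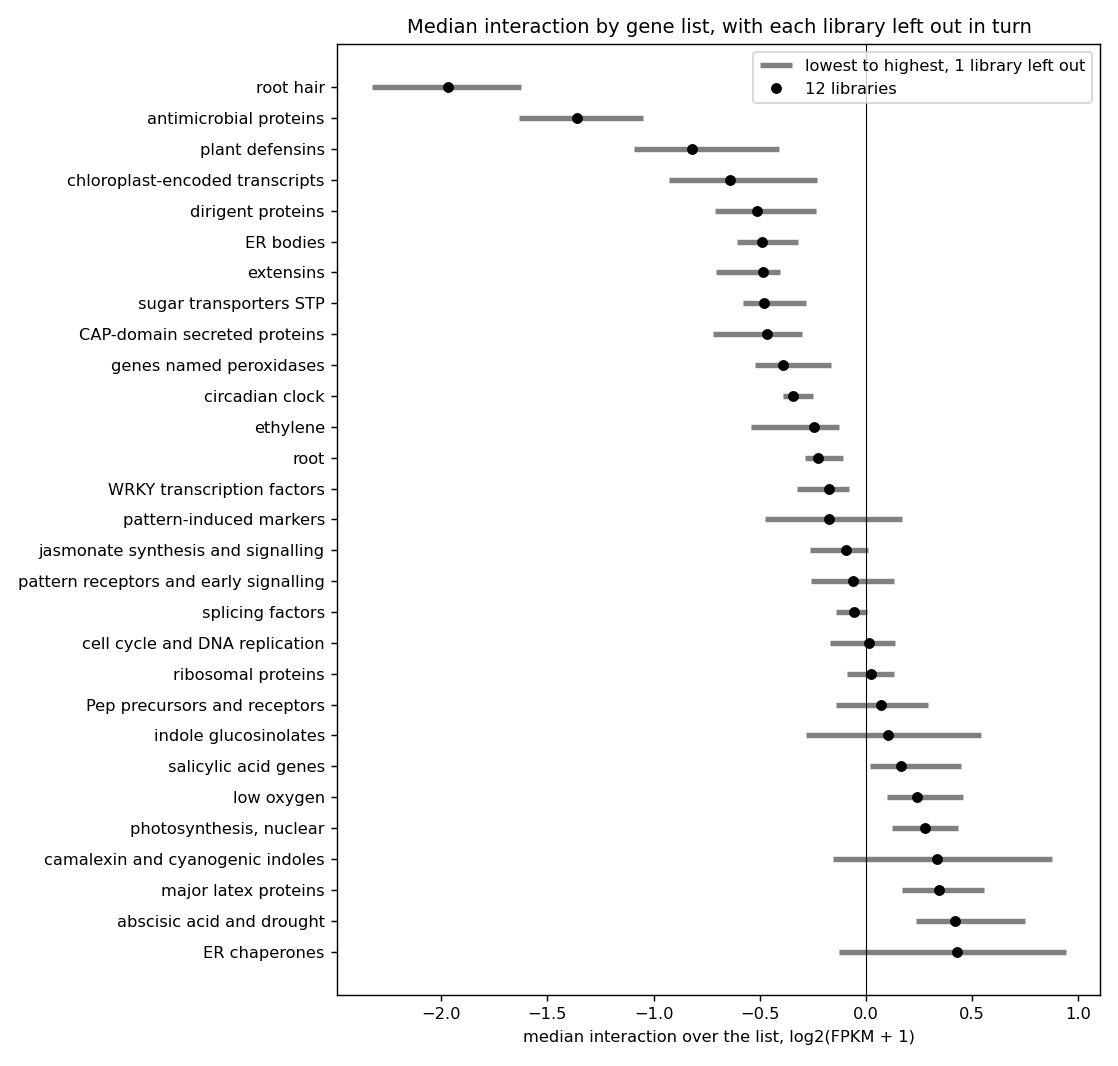
Median interaction over the genes kept of 29 lists with all 12 libraries (points) and the lowest to highest median when each library is left out in turn (bars), on the log2(FPKM + 1) scale. The bars of the root hair, antimicrobial and defensin lists lie below 0, that of abscisic acid genes above, and those of camalexin and ER chaperone genes cross it.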

How the data were processed

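RNA from 12 pools of seedlings was sequenced as paired reads, per the labels' protocols. The authors deposited 1 table of FPKM, per its header 1 column per library; the sources used here give no aligner, counter, build or annotation, so no coordinates or sequences are printed. Gene names came from the reference annotation, which matched 31912 of 32846 identifiers.

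Values were taken as log2(FPKM + 1) for the 18177 genes reaching 1 FPKM in 3 or more libraries and fitted with limma 3.58.1 in R 4.3.3: 1 mean per group, mean-variance trend, 8 residual degrees of freedom, two-sided tests, Benjamini-Hochberg adjustment over all genes kept, threshold 0.05. The fit was tested on simulated data. Errors are standard errors.

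Depth was recovered from the FPKM steps; for 300 of 300 genes checked the steps gave whole reads within 0.05 of a read, and depth sets counting error only.

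The 28 gene lists and 41 families by product name, the members and the tests were chosen with earlier results of these data known. Of 445 list entries 3 were dropped for disagreeing names. Lists are described by counts and medians beside all genes, without a test. Named genes are those with the 15 smallest interaction p-values in each direction at a mean of at least 2 FPKM, 6 with opposite responses of at least 0.5, AT3G23900 and CPK28, and per list the highest mean and the 2 smallest p-values; not all are printed, and others are marked as named after their values were seen. Alternatives are in the closing section.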

Additional observations from a re-analysis of the deposited data

How the results depend on the processing

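For the 71 genes recomputed under 23 alternatives no interaction changed direction (EXT10 and the root hair genes under the filter were not among them), and RHS13, GATA4 and AT1G20823 passed the test in 1 each. Many of the 71 were chosen for a small interaction p or after their values were seen, and the alternatives reuse the same libraries. Their unchanged direction was therefore largely set by the choice. With a pseudocount of 0.1 there was 1 call, 200 raised and 75 lowered genes had the smaller response in irr, and root hair genes had a median of -4.24. With a pseudocount of 5 these were 49 and 12, with medians of 0.37 for lowered genes, -0.70 for root hair and -0.31 for defensins. Without a filter 526 genes lay above 0 at an unadjusted p under 0.05, and medians were -0.78 for root hair, -0.04 for root, -0.13 for dirigents, -0.17 for extensins and -0.018 for defensins. With a mean of at least 5 FPKM they were 185 genes, -0.19 for extensins and -1.35 for defensins. Library quality weights gave 790 genes above 0, antimicrobial proteins at -0.85, and 114 of 238 raised genes with the smaller rise.

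When each library was left out, calls ran from 0 to 7, with 1 call without wild-type water replicate 3. Genes above 0 at an unadjusted p under 0.05 ran from 252 to 862, lowered genes with the smaller fall from 17 to 38, and the medians of raised and lowered genes from -0.53 to 0.40 and from -0.026 to 0.36. The raised and lowered genes were chosen again each time, in a design that is then unbalanced. List medians ran from -0.54 to -0.13 for ethylene, -0.39 to -0.25 for clock, 0.24 to 0.75 for abscisic acid, -0.58 to -0.28 for STP, -0.14 to 0.007 for splicing, -0.70 to -0.41 for extensins, -1.09 to -0.41 for defensins, -0.72 to -0.30 for CAP-domain and -0.93 to -0.23 for chloroplast genes.

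The ribosomal RNA alternatives were chosen after seeing the data. With the class of library as a term the clock median was -0.20 and 98 of 172 raised genes had the smaller rise. Within the 8 low libraries 352 genes lay below 0 at an unadjusted p under 0.05, and the 4 raised and 4 lowered genes had medians of -1.54 and 0.72. Medians there were -0.91 for antimicrobial, -0.43 for root, -0.01 for abscisic acid, -0.036 for low oxygen, -0.24 for STP, 0.032 for splicing, 0.33 for cell cycle, -0.93 for dirigent, -0.22 for latex and 0.21 for ribosomal proteins. The cause of these shifts was not tested. Same-numbered libraries had correlations of -0.52 to 0.19, 3 of 18 over 0.1, against -0.24 to 0.35 for libraries of different number. Pairing by number was therefore not seen, and a shared culture or day was not tested. The replicate block gave 0 calls and 346 genes above 0 and 842 below at an unadjusted p under 0.05.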
